A study of Mus musculus with 16 samples.

Results

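The variable segments of the immunoglobulin heavy chain locus were read through 133 of the 55681 non-control probes of a mouse expression array. The probes were chosen by position alone: they lie on chromosome 12 of the mm9 build in the stretch that holds the variable segments, and probes named Adam6a or Adam6b were left out. Their starts run from 114816899, the end nearest the mu constant gene, and the last probe ends at 117247905, a span of 2431 kb. By name, 86 probes carry a variable segment of 1 of 15 families, 4 are described as immunoglobulin heavy chain without a family, 8 are long intergenic RNA (lincRNA) probes and 35 have no description.

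The deficient mice carry no 3'RR, the regulatory region at the 3' end of the heavy chain locus. Their labels describe a KO on an IgH allele of 129 origin, kept on a BALBC background, with BALBC as the strain. For the wild-type mice the strain entry is 129, so genotype and strain entry cannot be told apart in any comparison given here. RNA came from splenic B cells held on beads against B220, a surface protein of B cells, with 0.2 µg per sample and a RIN of 9. Each of 2 slides held 4 deficient and 4 wild-type arrays, named here by the number in their labels. Slide 1 held deficient 9, 10, 11 and 12 and wild type 2, 5, 6 and 8. Slide 2 held deficient 1 to 4 and wild type 1, 2, 3 and 5. Deficient arrays took places 5 to 8 on slide 1 and 1 to 4 on slide 2, with wild-type arrays in the rest. Genotype and place therefore cannot be told apart within a slide. The series text counts 4 mice per genotype, against 8 arrays per genotype analysed, and the labels leave unsaid whether every array had its own mouse. The p-values therefore reflect array-to-array spread, part of which may be technical.

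A B cell builds its heavy chain gene by joining 1 variable segment to a diversity and a joining segment upstream of the mu constant gene. The rearranged gene is transcribed from the promoter of the variable segment it kept, and unrearranged segments can give low germline transcripts. The 3'RR, a group of enhancers, sits at the other end of the locus beyond the last constant gene and is known for its role in heavy chain transcription and class switching. Segments fall into families by sequence likeness. IGHV5 and IGHV2 (Q52) lie interleaved near the constant genes, and IGHV1 (J558), the family with the most segments in the mouse, fills most of the distant part. The mm9 build is that of the C57BL/6J strain, whose segments differ in number and sequence from those of 129 and BALB/c mice.

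Each probe is 60 bases long, and probes for related segments can be close to identical, which limits how far a signal belongs to 1 segment. All sequences are given 5′ to 3′ as printed on the array, with mm9 positions from the deposited files. The clearest case in IGHV2 is shown by 3 probes, in which capitals mark bases that differ from the first.
IGHV2-2 (chr12:114826478-114826537, minus strand): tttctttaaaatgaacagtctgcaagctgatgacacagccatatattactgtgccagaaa
IGHV2-5 (chr12:114923693-114923752, minus strand): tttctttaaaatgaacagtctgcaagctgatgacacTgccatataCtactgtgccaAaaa
IGHV2-9 (chr12:115117307-115117366, minus strand): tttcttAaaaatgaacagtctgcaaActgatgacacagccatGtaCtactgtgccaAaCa

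Among IGHV1 probes the closest pair differs at 2 of 60 bases, in capitals in the second.
IGHV1-15 (chr12:115895649-115895708, minus strand): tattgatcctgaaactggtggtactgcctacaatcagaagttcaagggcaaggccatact
IGHV1-23 (chr12:116002746-116002805, minus strand): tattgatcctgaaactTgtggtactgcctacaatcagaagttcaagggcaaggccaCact

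The probes with the largest falls over both slides are given next, without capitals because no base is compared. The last line is the probe of the 1 tested named segment that did not fall over both slides.
IGHV1-58 (chr12:116550493-116550552, minus strand): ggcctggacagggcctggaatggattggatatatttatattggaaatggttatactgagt
IGHV2-6 (chr12:114954972-114955031, minus strand): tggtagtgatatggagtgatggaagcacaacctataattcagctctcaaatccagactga
IGHV1-4 (chr12:115725469-115725528, minus strand): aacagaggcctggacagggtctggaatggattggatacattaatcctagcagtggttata
IGHV15-2 (chr12:115802849-115802908, minus strand): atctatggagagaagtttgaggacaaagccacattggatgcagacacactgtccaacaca

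A pair of probes with no description differs at 3 bases, in capitals in the second, and the second lies 37 bases from a probe of IGHV8-8. The 2 probes of IGHV8-8 follow it, because the 3 neighbours gave different results. The first IGHV8-8 probe is placed on 58 bases in the files although it has 60.
A_55_P2160243 (chr12:116805280-116805339, minus strand): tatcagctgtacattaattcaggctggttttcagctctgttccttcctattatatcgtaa
A_55_P2002743 (chr12:116532193-116532252, minus strand): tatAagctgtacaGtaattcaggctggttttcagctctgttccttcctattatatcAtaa
IGHV8-8 (chr12:116532289-116532346, minus strand): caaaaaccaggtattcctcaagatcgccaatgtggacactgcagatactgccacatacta
IGHV8-8 (chr12:116532348-116532407, minus strand): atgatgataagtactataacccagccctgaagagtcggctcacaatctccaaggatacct

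Signals are log2 processed intensity minus the array's own 75th percentile, so 0 is the signal of that percentile and a difference of -1 is a halving. Differences are deficient minus wild type from 1 limma model, with its standard error (SE) and p-values adjusted by Benjamini-Hochberg over all 32874 probes whose signal was well above background on 4 or more of the 16 arrays. Of the 133 probes, 101 passed that filter and are called measured. They include 79 of 86 probes named for a segment, all 4 without a family, 5 of 8 lincRNA probes and 13 of 35 without description. The named probes below the filter belong to IGHV2-7, IGHV5-16, IGHV16-1, IGHV3-3, IGHV7-4, IGHV13-2 and IGHV1-49. No probe was saturated on any array. The 75th percentile of intensity ran from 662.1 to 990.5 in deficient arrays and from 576.1 to 947.7 in wild-type arrays.

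Variable segment signals were lower in deficient B cells along the whole locus. Over both slides 90 of the 101 measured probes fell and none rose, against 9.21% of all tested probes lower and 7.58% higher. On slide 1, 87 fell and none rose, against 14.1% lower and 9.19% higher among all tested probes. On slide 2, 88 fell and 1 rose, against 3.81% lower and 3.65% higher, or 7.46% in either direction. The median difference of the measured probes was -1.62 on slide 1 and -2.51 on slide 2, where the median of all tested probes was -0.07 and 0.01. A probe dim in every deficient array, such as IGHV7-1 or A_55_P1970479, passed the filter only through its wild-type signal, so its fall adds no support. Of the 101 measured probes, 76 were well above background on every array.

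The falls were most complete among the 83 measured probes described as variable segments. Of these, 82 fell over both slides, 80 on slide 1 and 81 on slide 2, and their median difference was -1.65 on slide 1 and -2.56 on slide 2. In bulk RNA fewer cells that use a segment and less RNA per cell cannot be told apart. On slide 1 all 4 deficient arrays lay below all 4 wild-type arrays for 74 of the 83 probes, against 14.1% of all tested probes. On slide 2 this held for 79, against 9.78% of all tested probes. It held on both slides for 71, where the share of all tested probes can be no more than 9.78%.

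The arrays of a genotype were not equally low. Taken as the median over the 83 described probes of the deviation from the slide's wild-type mean, deficient arrays 9, 10, 11 and 12 of slide 1 stood at -1.72, -0.88, -2.30 and -1.79, against 0.07, 0.44, -0.33 and -0.23 for wild-type arrays 2, 5, 6 and 8. On slide 2, deficient arrays 1 to 4 stood at -2.75, -2.69, -2.58 and -2.40, against 0.20, -0.23, 0.08 and -0.04 for wild-type arrays 1, 2, 3 and 5. Every deficient array was below every wild-type array of its slide, and deficient array 10 was the least low. Without it, 88 measured probes fell on slide 1 with a median of -1.81. The median standard deviation of a described probe was 0.60 in deficient and 0.42 in wild-type arrays of slide 1, against 0.21 in deficient and 0.19 in wild-type arrays of slide 2 (n = 4 arrays each).

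The deepest fitted fall over both slides was that of IGHV1-58, an IGHV1 segment. On slide 1 its signal was -2.35, -0.66, -2.45 and -2.28 in deficient arrays 9, 10, 11 and 12, against 0.54, 1.17, 0.11 and 0.40 in wild-type arrays 2, 5, 6 and 8. On slide 2 it was -4.71, -4.23, -4.60 and -4.62 in deficient arrays 1 to 4, against -0.22, -0.74, -0.30 and -0.41 in wild-type arrays 1, 2, 3 and 5. No deficient array reached a wild-type array on either slide, and deficient array 10 was well above the other deficient arrays of slide 1. The difference was -2.49 on slide 1 and -4.12 on slide 2 (SE 0.34 each), and -3.31 over both slides (SE 0.24, limma adjusted p = 5.07e-07), which is 9.91-fold lower.

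IGHV2-6, a Q52 segment, came next. On slide 1 deficient arrays 9 to 12 gave -1.64, -2.29, -3.28 and -2.62, against -0.11, 0.23, -0.54 and -0.40 in wild-type arrays. On slide 2 deficient arrays gave -5.38, -4.47, -4.44 and -4.18, against -0.26, -0.57, -0.38 and -0.65 in wild-type arrays. The groups did not overlap, and the signal fell 4.78-fold on slide 1 and 17.8-fold on slide 2 (limma adjusted p = 0.000326 and 1.69e-06). On slide 2 its signal was well above background on 3 of 4 deficient arrays.

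IGHV1-4, another IGHV1 segment, read -0.71, 1.20, -0.71 and -0.57 in deficient arrays 9 to 12, against 2.03, 2.98, 1.68 and 1.95 in wild-type arrays of slide 1. On slide 2 it read -2.79, -2.41, -2.74 and -2.67 in deficient arrays, against 1.32, 0.87, 1.19 and 1.08 in wild-type arrays. Deficient array 10 again stood above the other deficient arrays of slide 1 but below every wild-type array. Its difference over both slides was -3.06 (SE 0.26, limma adjusted p = 3e-06).

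IGHV1-12 fell by 2.71 over both slides (SE 0.40, limma adjusted p = 0.000421), but its arrays were uneven. Slide 2 gave -4.47, -1.29, -4.92 and -3.74 in deficient arrays, against -1.08, -1.53, -0.97 and -1.27 in wild-type arrays. Its signal was well above background on 3 of these 4 deficient arrays. Deficient array 2 lay within the wild-type range, and the other deficient arrays lay far below it. The slide 2 call was lost, at -2.35 to -1.96, without deficient array 1 or 3 or wild-type array 1 or 3. IGHV3-6, of the 36-60 family, was even: it read -2.0, -1.34, -2.12 and -1.94 in deficient arrays 9 to 12, against 0.38, 0.11, -0.03 and -0.03 in wild-type arrays of slide 1. The groups did not overlap there or on slide 2, and the difference over both slides was -2.71 (SE 0.11, limma adjusted p = 2.57e-09). In the IGHV8 family, IGHV8-12 fell by 2.49 (SE 0.14, limma adjusted p = 3.39e-08).

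Several of the large falls rest on probes that were not well above background on any deficient array of 1 or both slides. There only a bound can be given. A bound sets the wild-type mean against the higher of each deficient array's own signal and its lowest signal well above background. IGHV7-1, an S107 segment, had bounds of at least 2.1-fold lower (slide 1) and at least 2.22-fold lower (slide 2), with 3 of 4 wild-type arrays above background on slide 1. IGHV3-1 was 5.37-fold lower on slide 1, where 2 of 4 deficient arrays were above background, and on slide 2 at least 5.46-fold lower. IGHV11-2, whose segment is known for its use by B-1 cells, was 8.5-fold lower on slide 1, also with 2 of 4 deficient arrays above background, and on slide 2 at least 2.84-fold lower. IGHV12-3, also known from B-1 cells, fell 3.69-fold on slide 1. That call was lost with each slide fitted alone and in the authors' deposited log2 values (limma adjusted p = 0.0617 and 0.0732). The slide 2 bound of IGHV12-3 was at least 1.32-fold lower, with 3 of 4 wild-type arrays above background. Its slide 2 call was lost without deficient array 1 or wild-type array 3 (-1.81 to -1.80). It was lost too with normexp background correction (-0.51, limma adjusted p = 0.249) and quantile normalization (-1.53, limma adjusted p = 0.0578). With dim values set to the array's lowest signal well above background it was -0.46 (limma adjusted p = 0.542). In all, 2 of the 83 described probes were dim in deficient arrays of slide 1 and 6 in those of slide 2. With every dim probe at its bound, the median of the 83 was -1.62 on slide 1 and -2.52 on slide 2.

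Every measured probe fell over both slides in 12 of the 13 measured families, against 9.21% of all tested probes lower. IGHV15 was the exception. IGHV11, IGHV12 and IGHV15 had 1 measured probe each, and IGHV6 and IGHV10 had 2 each. Those of IGHV11 and IGHV12 were dim in every deficient array of slide 2. IGHV1 had 39 measured probes, all lower over both slides, with a median difference of -1.77 on slide 1 and -2.72 on slide 2. The 5 IGHV8 probes had medians of -2.22 and -2.61, the 4 IGHV3 probes -1.48 and -2.63, the 3 IGHV14 (SM7) probes -1.52 and -2.31, and the 4 IGHV9 (VGAM3.8) probes -1.49 and -1.90. The brightest probes of these families, IGHV1-7, IGHV8-5, IGHV3-8, IGHV14-3 and IGHV9-2, fell by 2.34, 2.35, 1.63, 2.29 and 1.66 over both slides. IGHV10-1 fell by 1.81 and IGHV7-3 by 1.84.

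IGHV5 fell by similar sizes on both slides. Its 7 measured probes had a median of -1.59 on slide 1 and -1.43 on slide 2. None differed between slides, against 5.14% lower and 8.72% higher among all tested probes. The same held for the 5 IGHV8, 4 IGHV9 and 2 IGHV10 probes and for those of IGHV11 and IGHV12. With normexp background correction IGHV5-2 and IGHV11-2 did differ (0.55 and 1.18, limma adjusted p = 0.0342 and 0.0155). With array weights IGHV8-12 did (-0.81, limma adjusted p = 0.0391). IGHV5-17 read 2.83, 4.02, 2.95 and 3.15 in deficient arrays 9 to 12, against 5.23, 5.78, 4.28 and 4.14 in wild-type arrays of slide 1. On slide 2 it read 1.99, 2.02, 1.90 and 2.17 in deficient arrays, against 4.06, 3.50, 3.83 and 3.67 in wild-type arrays. The groups did not overlap on either slide, and the difference was -1.62 on slide 1 and -1.74 on slide 2 (SE 0.33 each). The SE is equal because the model takes 1 spread for both slides. With each slide fitted alone the slide 1 difference did not pass (limma adjusted p = 0.0541). It did not pass in the authors' deposited log2 values either (-1.5, limma adjusted p = 0.057).

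IGHV2 probes lie among those of IGHV5. The IGHV5 probes run from 114816899 to 115097608 and the IGHV2 probes from 114826478 to 115117366. The 7 IGHV2 probes had medians of -1.52 on slide 1 and -2.51 on slide 2, and 6 of them fell further on slide 2, where 5.14% of all tested probes did. Per array, the IGHV5 median on slide 2 was -1.55 to -1.37 in deficient arrays and the IGHV2 median -2.78 to -2.25, which do not overlap. On slide 1 the ranges were -1.80 to -0.83 and -2.10 to -1.15, which overlap.

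Distance from the mu constant gene went with the size of the difference only loosely. The measured probes were ordered by start and split into 4 stretches of 25 or 26 probes. Described probes had a median of -1.52 on slide 1 and -2.31 on slide 2 in the first stretch, -1.55 and -2.50 in the second, -1.80 and -2.56 in the third, and -1.78 and -2.83 in the fourth. With dim probes at their bound the slide 2 medians of the first and second stretches were -1.95 and -2.39. Across the 83 probes Spearman's rho with distance was -0.22 on slide 1 and -0.40 on slide 2, as a description, since the probes share arrays and neighbours share families. Without IGHV5 it was -0.19 and -0.26 over 76 probes. Within IGHV1 alone it was 0.05 on slide 1 and -0.33 on slide 2 over 39 probes.

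IGHV1 had no probe in the first stretch. Its 7 probes in the second stretch had medians of -1.87 and -2.77 on slides 1 and 2, the 18 in the third -1.78 and -2.53, and the 14 in the fourth -1.70 and -2.89. The ends of the locus both fell. IGHV5-2, the nearest measured probe, read -3.15, -3.71, -3.75 and -3.49 in deficient arrays 9 to 12, against -2.0, -1.94, -2.29 and -1.41 in wild-type arrays of slide 1. Its difference was -1.62 on slide 1 and -1.20 on slide 2, with no overlap of the groups. The farthest, A_55_P1966608, has no description and lies 9361 bases beyond the probe of IGHV1-85, the last named segment. It read 1.55, 2.54, 0.94 and 1.56 in deficient arrays 9 to 12, against 3.49, 4.10, 3.03 and 3.05 in wild-type arrays of slide 1, and its difference was -1.77 on slide 1 and -2.89 on slide 2.

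Probes of 1 segment gave similar differences, and probes nearly alike in sequence did so in part. The 2 probes of IGHV2-2 gave -1.52 and -1.73 on slide 1 and -2.45 and -2.59 on slide 2, those of IGHV5-17 -1.85 and -1.62, then -1.68 and -1.74, and those of IGHV8-8 -2.22 and -2.24, then -2.61 and -2.56. The IGHV2-5 probe, with 57 of 60 bases shared with an IGHV2-2 probe, gave -1.51 and -2.51. IGHV2-9, with 55 of 60 bases shared with IGHV2-5, gave -0.99 on slide 1 and -2.44 on slide 2. A_55_P2048603 and A_55_P1970479, also with 55 of 60 shared, gave -1.65 and -2.36 on slide 1 and -1.98 and -3.37 on slide 2. The latter was dim in every deficient array. IGHV1-15 and IGHV1-23, with 58 of 60 bases shared, gave -1.35 and -1.48 on slide 1 and -2.40 and -2.51 on slide 2. For such probes the signal cannot be assigned to 1 segment.

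The difference itself changed between slides for 29 of the 101 measured probes, 27 lower and 2 higher on slide 2, against 5.14% lower and 8.72% higher among all tested probes. The count of 29 was 11 without the filter on dim probes and 50 with array weights. Of the 83 described probes, 74 had a lower difference on slide 2. Their median change was -0.94, where the median change of all tested probes was 0.07. IGHV6 (J606) showed it most. IGHV6-3 read 0.10, -0.36, 0.47 and 0.19 in deficient arrays 9 to 12, against 1.19, 1.57, 1.63 and 1.92 in wild-type arrays of slide 1. On slide 2 it read -1.87, -1.77, -1.85 and -1.52 in deficient arrays, against 1.93, 1.41, 1.71 and 1.59 in wild-type arrays. Its wild-type signals were close on both slides, unlike those of IGHV14-3 (means 4.41 and 3.24 on slides 1 and 2). The deficient signals of IGHV6-3 were lower on slide 2. Its difference was -3.41 on slide 2 and -1.48 on slide 1, a change of -1.93 (SE 0.26, limma adjusted p = 0.000766). IGHV6-6 gave -3.51 on slide 2 and -1.39 on slide 1, with a change of -2.12 (limma adjusted p = 0.00187). IGHV3-6, IGHV3-8 and IGHV2-9 also fell further on slide 2, by 1.51, 1.23 and 1.45 (limma adjusted p = 0.00148, 0.0121 and 0.0134).

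Other immunoglobulin and cell type probes moved between slides as well. Among 89 measured kappa variable probes, 38 rose and none fell on slide 1, and none rose and 15 fell on slide 2, with medians of 0.80 and -0.60, where 9.19% of all tested probes rose on slide 1 and 3.81% fell on slide 2. The mu constant probe differed by -0.54 on slide 1 (limma adjusted p = 0.0751) and by -1.95 on slide 2 (limma adjusted p = 3.66e-05). Of 7 plasma cell markers, 3 rose on slide 1 and 3 fell on slide 2, against the same 9.19% and 3.81%. Of the 3 that fell, Tnfrsf17 was not well above background on any deficient array of slide 2. The levels of the 7 markers were summed in multiples of the array's 75th percentile. On slide 1 the sum was 313 to 635 in deficient and 211 to 303 in wild-type arrays. On slide 2 it was 279 to 333 in deficient and 358 to 458 in wild-type arrays. Of 3 measured erythroid markers, 2 rose on slide 2, against 3.65% of all tested probes. The sum there was 1.88 to 9.79 in deficient arrays and 0.0856 to 0.122 in wild-type arrays. On slide 1 the erythroid sum was 61.2 to 216 in deficient and 54.8 to 342 in wild-type arrays. Hbb-b1 was not well above background on any wild-type array of slide 2. Their part in the slide difference of the variable segments was not tested.

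B cell markers were present on every array. Ptprc, Cd79a, Cd79b, Ms4a1 and Cd22 were well above background throughout, and over both slides Cd22 rose and none of these fell. Ms4a1 fell on slide 1 alone, by 0.37 (limma adjusted p = 0.00407). T cell, macrophage, plasmacytoid dendritic and NK markers were also measured, and of these 16 genes Cd3g alone rose over both slides and none fell. Cd3g differed by 0.37 on slide 1 (limma adjusted p = 0.434) and by 1.77 on slide 2 (limma adjusted p = 0.00376), where it was not well above background on any array. Cd3d, another T cell gene, rose on slide 2 by 1.08 (limma adjusted p = 0.0387), with 1 of 4 wild-type arrays above background.

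IGHV15-2 was the only described probe that did not fall over both slides. It read -4.42, -4.51, -5.62 and -4.53 in deficient arrays 9 to 12, against -3.01, -3.58, -3.79 and -4.18 in wild-type arrays of slide 1. Slide 2 gave -2.24, -5.04, -4.60 and -4.20 in deficient arrays, against -5.30, -4.73, -5.41 and -5.57 in wild-type arrays. Signals were near background: 1 deficient and 3 wild-type arrays of slide 1 and 3 deficient and no wild-type arrays of slide 2 were well above it. The difference was -1.13 on slide 1, where the groups did not overlap, and 1.23 on slide 2, where they did. Over both slides these opposite changes gave 0.05 (SE 0.35, limma adjusted p = 0.943), and neither slide passed the test. Slide 1 did pass in the authors' deposited log2 values (-0.81, limma adjusted p = 0.0146), and also when deficient array 1 of slide 2 was left out (-1.13, limma adjusted p = 0.0218).

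The 18 measured probes not described as variable segments were divided. Over both slides 8 fell, against 9.21% of all tested probes, and 10 did not pass. Those that fell include A_55_P1970479, with bounds of at least 2.82-fold lower (slide 1) and 4.74-fold lower (slide 2), and a lincRNA locus near 115365747, whose 2 measured probes A_30_P01021500 and A_30_P01026724 were dim in every deficient array of slide 1. On that slide the first was at least 3.72-fold lower, and the bound of the second was 1.32-fold. On slide 2, deficient array 1 lay above all wild-type arrays for A_30_P01021500, and A_30_P01026724 did not pass (-0.70, limma adjusted p = 0.217). At a second lincRNA locus, near 116855422, the 3 measured probes A_30_P01028099, A_30_P01017595 and A_30_P01019867 gave -0.05, 0.07 and -0.07 over both slides, and none passed. The named probe on either side of these loci fell.

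A_55_P1960083 lies on the plus strand, 2154 bases from the probe of IGHV1-66, and was the only measured probe that rose on a slide in the model reported. It read 6.50, 6.55, 6.62 and 6.57 in deficient arrays 9 to 12, against 6.63, 6.76, 6.74 and 6.78 in wild-type arrays of slide 1. Slide 2 gave 7.51, 7.52, 7.52 and 7.49 in deficient arrays, against 7.26, 7.31, 7.07 and 7.35 in wild-type arrays. The groups were apart on both slides, in opposite directions. Its difference was -0.17 on slide 1 (limma adjusted p = 0.0957) and 0.26 on slide 2 (limma adjusted p = 0.036), and the second was lost, at 0.20 to 0.28, on leaving out any 1 slide 2 array other than wild-type array 5. It was lost too, at 0.08 to 0.26, with normexp background correction, quantile normalization, no filter on dim probes, each slide fitted alone and the authors' deposited log2 values. The other plus strand probe, A_66_P108474, gave 0.12 over both slides (limma adjusted p = 0.463).

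A_55_P2121437, a bright probe with no description 26731 bases from its nearest described neighbour, gave 0.06 over both slides (SE 0.07, limma adjusted p = 0.611), where that neighbour fell by 2.43. It rose on slide 2 with array weights (0.25, limma adjusted p = 0.00763). It rose too when only the slide 2 arrays numbered 1 to 3 were fitted, without the number as a block (0.28, limma adjusted p = 0.0314). A_55_P2002743 lies 37 bases from IGHV8-8 and gave 0.80 on slide 1 and -0.94 on slide 2, neither past the test, while both IGHV8-8 probes fell on both slides. Slide 2 did pass for A_55_P2002743 with each slide fitted alone (-0.94, limma adjusted p = 0.0358), with array weights (-1.0, limma adjusted p = 0.0243) and in the authors' deposited log2 values (-0.35, limma adjusted p = 0.0303). A_55_P2160243, 57 of 60 bases alike, did not pass on either slide. It was dim in every wild-type array of slide 1 and every deficient array of slide 2, with a bound of at least 1.61-fold higher for slide 1 and a bound for slide 2 of at least 1.22-fold lower.

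Genes that act on the variable segments or on the receptor they encode passed the test over both slides at shares near those of all probes. Of 31 such genes 27 were measured, and over both slides 3 fell and 3 rose, against 9.21% and 7.58% of all tested probes. On slide 1, 6 fell and 1 rose, against 14.1% and 9.19%, and on slide 2, 1 fell and 2 rose, against 3.81% and 3.65%. Vpreb3 and Vpreb1, of the surrogate light chain group, fell by 0.65 and 0.48, and Irf4, a factor of late B cell stages, fell by 0.47 (limma adjusted p = 0.0115, 0.0128 and 0.0101). Pou2f2, which binds the octamer of variable segment promoters, rose by 0.36, its coactivator Pou2af1 by 0.24 and the receptor kinase Syk by 0.28 (limma adjusted p = 0.00119, 0.0198 and 0.0253). Pax5, Ebf1, Yy1, Ctcf and Rad21, known for their part in the contraction and looping of the locus, did not pass the test over both slides. Ebf1, Yy1 and Rad21 fell on slide 1, by 0.32, 0.39 and 0.30 (limma adjusted p = 0.0288, 0.00211 and 0.0118), and Pax5 rose on slide 2 by 0.25 (limma adjusted p = 0.0399). Spi1, Rag1, Rag2 and Igll1 were not measured.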

How the data were processed

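Total RNA was labelled with Cy3 and hybridised to 16 single-colour Agilent arrays, 4 per genotype on each of 2 slides. The deposited spot intensity comes, per the file headers, from Agilent software (Feature Extraction 10.7.3.1) with background subtraction, and was not normalized between arrays. The series also holds log2 values as the authors deposited them, with column medians of 5.58 to 5.60 on slide 1 and 6.49 to 6.50 on slide 2, used only within slides as an alternative. Their scale is log2 and their centring differs by slide; the sources used here do not give the steps. Positions are mm9, per the file headers.

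Control spots (3671 of 62976) and spots flagged as outliers were left out, spots of a probe averaged, and each array's 75th percentile subtracted from its log2 processed signals. A probe was tested if well above background on at least 4 arrays. All differences came from a single fit in limma 3.58.1 (R 4.3.3) with a mean per genotype and slide, with a threshold of 0.05 after Benjamini-Hochberg adjustment over 32874 probes. In data simulated from these arrays it was tested with known changes. The simulated noise was independent between probes, so shifts shared by a whole array were not covered, and no result is drawn from it here. The 2 slides' files annotate 12 of the 133 probes at different positions; names and positions of the slide 1 files were used, and 2 probes inside the stretch only in those files were left out. On slide 2 the numbers 1 to 3 occur in both genotypes, and same-numbered arrays deviated together with r of 0.105, 0.064 and 0.023, so they were not taken as pairs. The members and lists were chosen with earlier results of these data known. Named probes were the 10 largest passing differences (at most 3 per family), the 8 brightest that did not pass, any that rose, the 6 with the smallest adjusted p for the slide difference, the nearest and farthest, and the brightest per family. Exact permutation within a slide cannot give a two-sided p below 0.0286. Promoter sequences of these segments were not analysed here. The number of arrays limits the precision.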

Additional observations from a re-analysis of the deposited data

Results flagged for a closer look

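Single arrays stood apart from the other 3 of their group for 8 of the 32 named probes, in 9 of 128 groups examined, where chance gives about 1 in 20. On slide 1, deficient array 10 was the highest for IGHV1-58 at -0.66 (others -2.45 to -2.28), for IGHV1-4 at 1.20 (others -0.71 to -0.57) and for IGHV10-1 at 2.11 (others 0.96 to 1.13). Deficient array 12 was the highest for IGHV7-1 at -5.21, where no deficient array was well above background, and deficient array 11 the lowest for IGHV15-2 at -5.62. Wild-type array 5 of slide 1 was the highest for IGHV2-9 at 2.86 (others 2.54 to 2.58). On slide 2, deficient array 4 was the lowest for A_66_P108474 at -3.18 and wild-type array 5 the highest at -3.15, and wild-type array 5 was the highest for A_55_P2121437 at 6.16 (others 5.80 to 5.81).

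Of the 32 named probes, 6 were chosen for the smallest adjusted p of the slide difference, so the count that passed is partly set by that choice. For 11 named probes the difference on slide 2 minus that on slide 1 passed the test, against 5.14% lower and 8.72% higher among all tested probes. It was -1.63 for IGHV1-58, -1.89 for IGHV2-6, -1.51 for IGHV3-6, -1.93 for IGHV6-3, -2.12 for IGHV6-6, -1.23 for IGHV3-8, -1.45 for IGHV2-9, -1.06 for IGHV7-3 and -1.09 for IGHV14-3. It was 0.43 for A_55_P1960083 and 2.36 for IGHV15-2. The call was lost for IGHV14-3 on leaving out any 1 array other than deficient array 11 or wild-type array 5 of slide 1 (-1.18 to -0.88), for IGHV1-58 with 9 of the 16 arrays (-1.63 to -1.48) and for IGHV15-2 with 8 of the 16 (2.08 to 2.42). With normexp background correction the change was -0.57 for IGHV1-58 (limma adjusted p = 0.316) and 0.94 for IGHV15-2 (limma adjusted p = 0.0523), and with array weights it was 1.73 for IGHV15-2 (limma adjusted p = 0.103). Without the filter on dim probes the calls of IGHV1-58, IGHV15-2 and IGHV14-3 were lost (limma adjusted p = 0.0743, 0.0755 and 0.0945), and with quantile normalization those of IGHV14-3 and A_55_P1960083 (limma adjusted p = 0.0935 and 0.104).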

How the results depend on the processing

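No alternative run turned round a called difference of the counts, medians and named probes given here. The measured probes that fell numbered 89 to 91 over both slides, 84 to 88 on slide 1 and 82 to 87 on slide 2 when 1 array was left out, and 65 fell on slide 1 with each slide fitted alone and 67 in the authors' deposited log2 values, against 87 as reported. The medians without 1 array were -2.17 to -1.96, -1.81 to -1.43 and -2.59 to -2.45. The median was less low with normexp background correction (-1.67 over both slides, -1.99 on slide 2), without a filter on dim probes (-2.24 on slide 2, over more probes) and in the authors' deposited log2 values (-2.04 on slide 2). The count of probes whose difference changed between slides depended most on processing: 29 as reported, 18 with quantile normalization, 11 without the filter and 50 with array weights. It was 12 to 43 when 1 array was left out: 18 without deficient array 9, 15 without wild-type array 6 and 17 without wild-type array 8 of slide 1, and 14, 16 and 17 without deficient arrays 1, 2 and 3 and 12 and 14 without wild-type arrays 1 and 3 of slide 2. The cause was not tested. Of the list of regulators and receptor genes 5 in place of 3 fell with the mean over a gene's probes. On slide 2 numbers 1 to 3, the replicate block gave 81 probes that fell with a median of -2.60, against 84 and -2.60 for the same arrays without it. Dim probes limit the size of the largest falls to bounds. Described probes alone and slide 2 positions were alternatives chosen after seeing the data.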
